A study of Mus musculus with 48 samples.

Results

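Astrocytes of the mouse cortex with and without Gabbr1 were compared at postnatal day 28 (P28). The comparison used 8 of the 48 libraries of the series, taken by their region, age and genotype labels: 4 labelled Gabbr1 control and 4 labelled Gabbr1 cKO (conditional knockout, a deletion restricted to some cells or times). The series sequenced astrocyte RNA from the cortex, the olfactory bulb and the hippocampus, during early postnatal development and, at P28, with or without Gabbr1. The question here is which cortical astrocyte genes differ when the receptor subunit is missing. Control replicates 1 and 2 and cKO replicates 1 to 3 belong to a first round of deposit, and control replicates 3 and 4 and cKO replicate 4 to a later one. The 3 later libraries, control and cKO alike, carry tamoxifen as their treatment label, and the 5 earlier ones carry no treatment label. The labels do not give the Cre line, the floxed allele, the sex or whether each library is a separate animal. The p-values therefore measure the spread between these libraries, which may be technical.

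The GABA-B receptor is a G protein-coupled receptor made of a pair of subunits. The Gabbr1 subunit binds GABA, and the Gabbr2 subunit carries the receptor to the membrane and couples it to Gi/o proteins, which lower cyclic AMP through adenylyl cyclase and release βγ subunits that act on ion channels. Astrocytes express the receptor, take up GABA and answer it with calcium signals, and KCTD proteins attach to the receptor and shape its response.

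The libraries held between 2726163 and 4454629 reads assigned to genes. Astrocyte markers had the highest sum of the marker lists in every library. The summed normalized read count of 12 astrocyte markers was 155950 to 311360 per library, of which Slc1a2 alone gave 110740 to 253880. The sum was 644.53 to 1234.7 for 14 neuronal markers and 2812 to 16460 for 12 mature oligodendrocyte markers. Of 5 blood markers 4 were at 0 in every library. The rounds stood apart. The ribosomal precursor Rn45s took 33.4% to 35.8% of reads in the first round and 27.0% to 28.04% in the later one, and 12100 to 13020 genes had a read in the first round against 14107 to 15141 in the later one. Of 10188 genes tested, 981 (9.63%) differed between the rounds at a limma adjusted p under 0.05, 394 (3.87%) higher and 587 (5.76%) lower in the later round, so the round was a covariate in every test of genotype. Y-linked reads were 0 in cKO replicate 2 and control replicate 4 and present in the other 6 libraries. Differences are log2 differences of normalized read counts after adding 1, cKO minus control, which understates the change of low genes.

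Gabbr1, the targeted gene (chr17:37045966-37075067, plus strand, GRCm38), was examined first. Control replicates 1 to 4 had normalized read counts of 1745.5, 1930.1, 1159 and 927. The counts of cKO replicates 1 to 4 were 89.8, 96.5, 134 and 211. Every cKO library lay below every control library, which holds for 1.03% of tested genes. The difference was -3.46 (SE 0.27, limma adjusted p 9.39e-07), and the exact two-sided permutation of genotype within rounds gave p = 0.0333, the smallest its 30 arrangements allow. It was -4.11 within the first round and -2.29 within the later round, where the controls were lower and the single cKO library was the highest of the 4 cKO libraries. The interaction of genotype and round was 1.82 (unadjusted p 0.000167, limma adjusted p 0.849 over all genes), and 1.5% of tested genes had an unadjusted interaction p under 0.05. In the other P28 tables, Gabbr1 was 780 and 824 in hippocampus controls against 151.7 to 380 in cKO, and 184 to 318 in olfactory bulb controls against 63.6 to 99.5 in cKO. No library overlapped in either region, which holds for 7.92% and 4.69% of the genes tested there. The value is a count over the whole gene, and the removed stretch is not given in the sources used here. Fewer cells with the gene and less RNA per cell cannot be told apart in bulk libraries, here and below.

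Gabbr2, the partner subunit, read 1236, 1277, 903 and 815 across control replicates 1 to 4. The cKO replicates read 1201.5, 985, 1160 and 752. Within each round the cKO libraries lay below the controls, as for 4.6% of tested genes, and the genotypes overlapped once the rounds were joined. The difference in cortex was small, at -0.18 (SE 0.13, limma adjusted p 0.813, exact permutation p 0.1). In the other P28 tables Gabbr2 differed by -0.03 in hippocampus and by -1.01 in olfactory bulb (limma adjusted p 0.877). Olfactory bulb controls had 526, 526 and 367 against 206, 192 and 311 for cKO. The cKO libraries there lay below every control, as for 4.69% of the genes tested in that region.

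**Figure D1:**
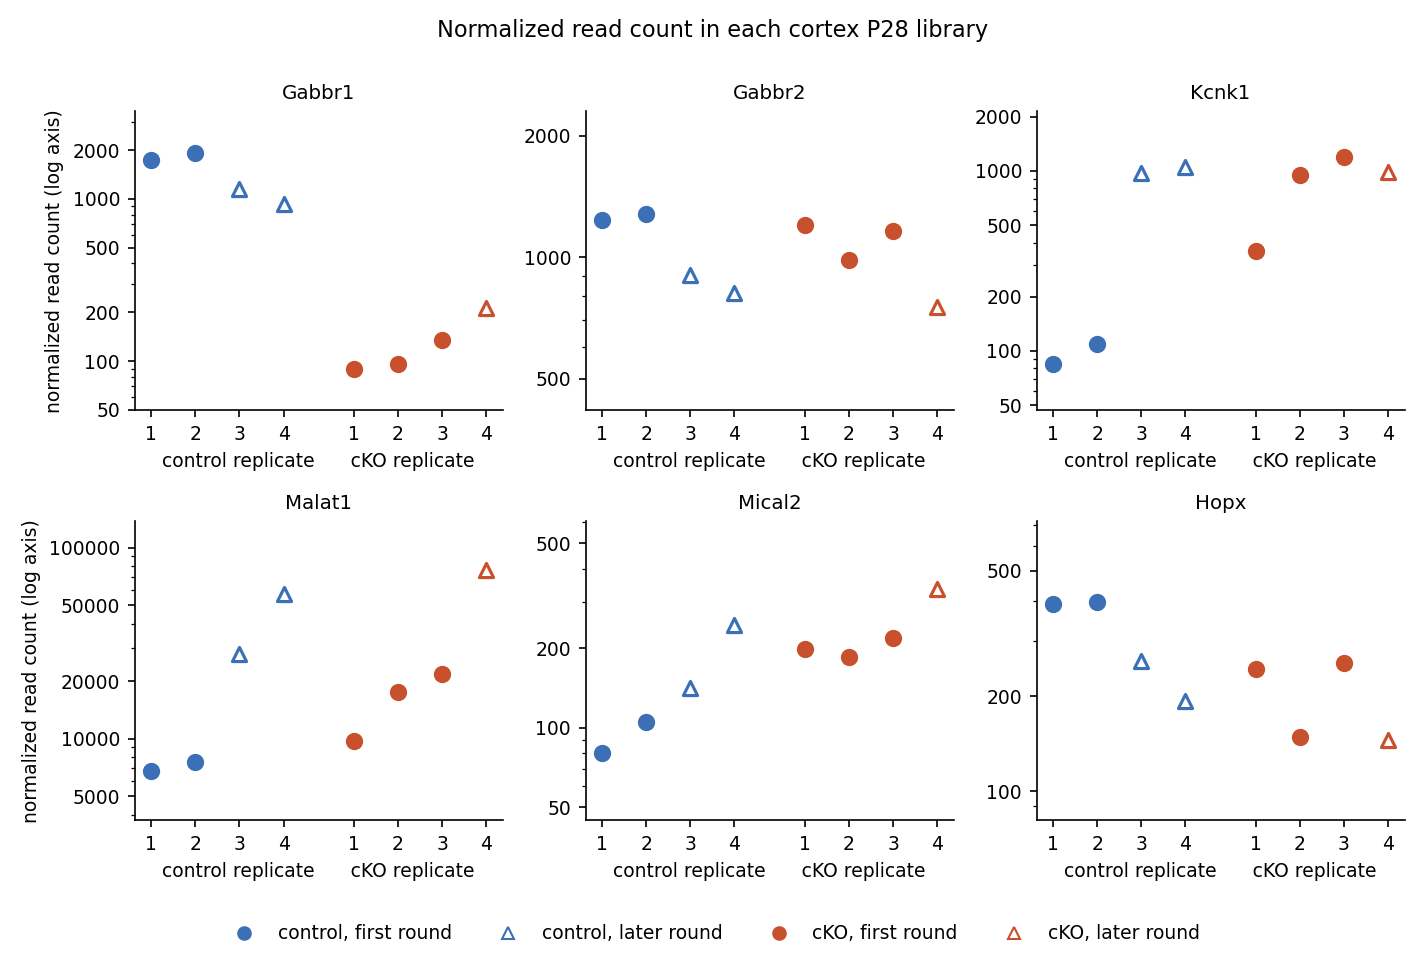
Normalized read count (log axis) of Gabbr1, Gabbr2, Kcnk1, Malat1, Mical2 and Hopx in each of the 8 cortex P28 libraries, filled circles for the first round of deposit and open triangles for the later round, controls in blue and cKO in red. Gabbr1 separates the genotypes in both rounds (89.8 to 211 against 927 to 1930.1), while Kcnk1 separates them only among the first-round libraries.

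Apart from Gabbr1, no gene passed the test. Of 10188 genes with a mean normalized read count of at least 10, 0 were higher (0%) and 1 was lower (0.00982%) at a limma adjusted p under 0.05. At an unadjusted p under 0.05, 330 genes (3.24%) were higher and 317 (3.11%) lower in cKO, 6.35% in all. The edgeR quasi-likelihood test on recovered reads also called only Gabbr1, with 289 genes higher and 297 lower at an unadjusted p under 0.05. The next smallest limma adjusted p after Gabbr1 was 0.474, for Malat1. Over all tested genes 5071 (49.8%) were higher and 5117 (50.2%) lower in cKO, with a median difference of -0.00, and 75.4% of the differences were smaller than 0.5 in either direction. The genes named below, Gabbr1 aside, are therefore described by their values and are not called changed.

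**Figure D2:**
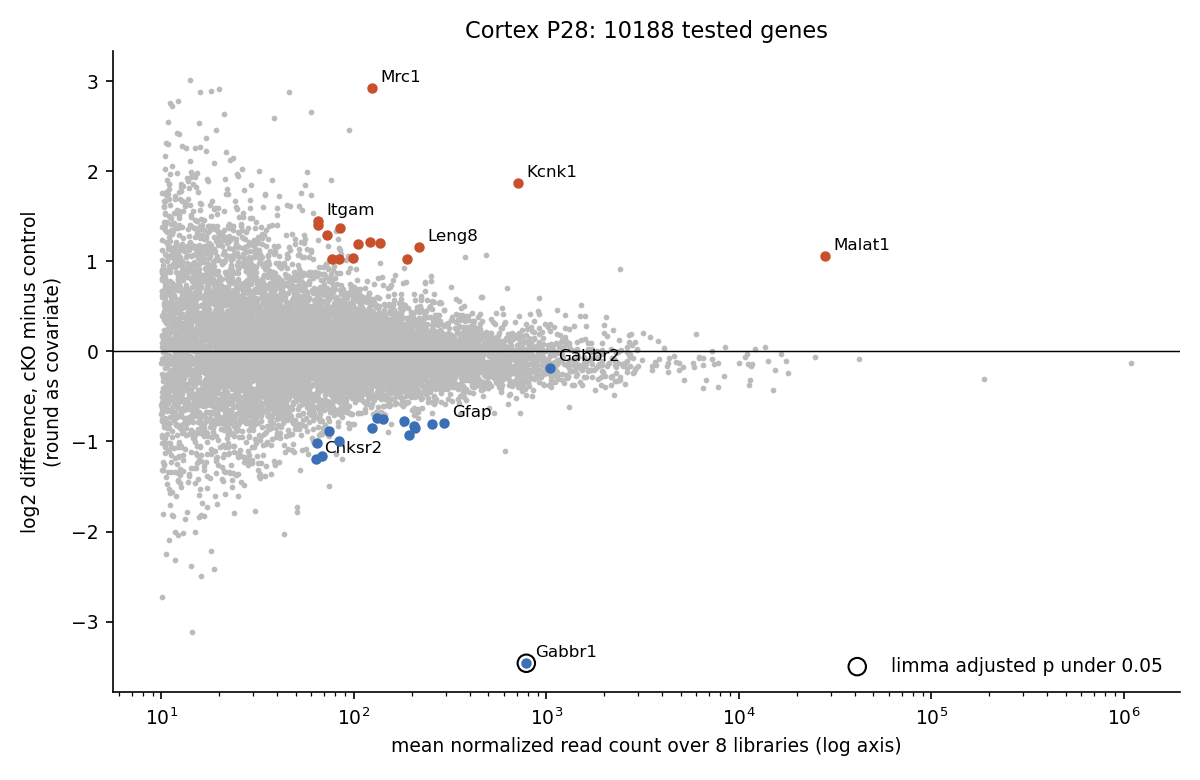
Log2 difference of 10188 tested genes, cKO minus control with the round as covariate, against the mean normalized read count over the 8 libraries (log axis). Red and blue points are the named genes with the largest higher and lower differences and Gabbr2, and the ring marks Gabbr1, the gene with a limma adjusted p under 0.05.

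Kcnk1, a two-pore potassium channel that contributes to the passive potassium conductance of mature astrocytes (chr8:125995170-126030685, plus strand, GRCm38), had a large difference in the first round and none of that size in the later one. In the first round its normalized read count was 84.5 and 109.8 for controls, against 361, 945 and 1191 for cKO. In the later round the controls had 974 and 1044 and the cKO library 979.6. The first-round controls were thus far below the other 6 libraries, and the later cKO library lay between its controls. The difference was 1.87 over both rounds (SE 0.42, limma adjusted p 0.551, exact permutation p 0.0667), 2.93 within the first round and -0.04 within the later one. The interaction of genotype and round was -2.97 (unadjusted p 0.00011, limma adjusted p 0.849). Kcnk1 passed the limma test in the first round alone (difference 2.93, adjusted p 1.34e-05) and without cKO replicate 4 (2.93, adjusted p 0.000862). Both fits hold the same contrast, because cKO replicate 4 is the only cKO library of the later round. The exact permutation p of Kcnk1 within the first round was 0.1, the smallest its arrangements allow.

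The same channel was read in the other P28 tables, which were scaled apart from the cortex and are set beside it without a test. Hippocampus controls had 262 and 129.9 against 443, 878, 786 and 756 for cKO, a Kcnk1 difference of 1.90. Olfactory bulb controls had 25.3, 13.6 and 459.9 against 464, 568 and 661 for cKO, a Kcnk1 difference of 3.32. All of these libraries were deposited in the later round, but by the library numbers in the labels the olfactory bulb control at 459.9 falls among the later cortex libraries, and the other 4 controls fall among the first-round ones. In developing cortex, a table scaled apart as well, Kcnk1 had 69.8, 93.6 and 129.2 at P7 against 1203, 1085, 905 and 1049 at P14.

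The 125 genes (1.23%) with an unadjusted p under 0.01 were ranked by size where their mean reached the median of tested genes (61.82). The 15 largest higher differences included, beside Kcnk1, 2 genes of brain macrophages and microglia, 2 nuclear noncoding RNAs and a phosphatase of the immediate early response. Mrc1, the mannose receptor of border macrophages, had no read in both first-round controls against 10.1, 5.24 and 21.6 in first-round cKO, and 351 and 67.1 in later controls against 539 in later cKO. Its difference of 2.92 (SE 0.66, limma adjusted p 0.551) depends on the pseudocount, and was 4.97 with 0.1 added. Itgam, the CD11b integrin of microglia, was higher by 1.45 (SE 0.46). Both belong to cells other than astrocytes, and the values of the whole microglia list are given below.

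Malat1, a nuclear long noncoding RNA, had 6739, 7579, 27913 and 57191 across control replicates 1 to 4, against 9750, 17645, 21935 and 76352 across cKO replicates 1 to 4. Within each round the cKO libraries lay above the controls, as for 4.08% of tested genes, while the rounds differed more than the genotypes. Its difference was 1.06 (SE 0.21, limma adjusted p 0.474), 1.12 within the first round and 0.93 within the later one. Malat1 passed the limma test in the first round alone (1.12, adjusted p 0.00772), without cKO replicate 1 (1.25, adjusted p 0.0171) and without control replicate 4 (1.22, adjusted p 0.00986). It was higher in the hippocampus cKO libraries by 0.96 and in olfactory bulb by 0.15, with overlapping groups in both.

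Mical2, an enzyme that oxidizes and takes apart actin filaments, had 80.3, 105.1, 141 and 246 across control replicates 1 to 4, against 199.7, 186, 219.8 and 337 across cKO replicates 1 to 4. Within each round the cKO libraries lay above the controls, as for 4.08% of tested genes. The difference was 1.02 (SE 0.23, limma adjusted p 0.551), close in the first round (1.12) and the later one (0.85). Dusp1, a phosphatase that switches off MAP kinases, had 27.5 and 33.9 in first-round controls against 71.8, 125.9 and 71.1 in first-round cKO. In the later round its controls had 131.5 and 150.04 against 229 in cKO, and the difference over both rounds was 1.20 (SE 0.29, limma adjusted p 0.56). The other genes with large higher differences were Eml5 (1.40), Csnk1g1 (1.37), the histone acetyltransferase Kat2a (1.30), the axon initial segment anchor Ank3 (1.21, or 1.92 without cKO replicate 4), the noncoding RNA Kcnq1ot1 (1.20), Leng8 (1.15), the tubulin acetyltransferase Atat1 (1.04), Zfp142 (1.02) and the transcription factor Rreb1 (1.02).

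The promoters of Dusp1 and Kcnk1 are shown because cyclic AMP, the messenger that the receptor lowers, acts on genes through CREB, which binds the palindrome TGACGTCA and its core TGACG. Sequences and coordinates are from RefSeq on GRCm38.p6, the 250 bases before the annotated start, 5′ to 3′ on the gene's strand, with the core on either strand in capitals. The Dusp1 window is chr17:26508473-26508722 (minus strand) and the Kcnk1 window chr8:125994852-125995101 (plus strand).
Dusp1: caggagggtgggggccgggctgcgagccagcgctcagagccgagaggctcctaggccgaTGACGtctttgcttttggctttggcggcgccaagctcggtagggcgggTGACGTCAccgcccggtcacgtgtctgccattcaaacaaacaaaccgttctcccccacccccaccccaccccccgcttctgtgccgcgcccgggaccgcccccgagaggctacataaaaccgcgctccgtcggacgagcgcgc
Kcnk1: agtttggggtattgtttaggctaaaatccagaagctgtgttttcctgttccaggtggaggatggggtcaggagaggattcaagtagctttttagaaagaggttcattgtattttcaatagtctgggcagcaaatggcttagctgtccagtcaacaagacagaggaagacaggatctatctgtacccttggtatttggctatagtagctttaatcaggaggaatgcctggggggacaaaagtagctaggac
The palindrome contains the core on both strands, so 2 of the 3 cores of Dusp1 overlap within it, and Kcnk1 holds 0. In windows reaching 250 bases before and 50 after the start, the core was found on either strand in 8 of the 14 matched genes with the largest higher differences (57.1%), in 4 of the 13 matched genes with the largest lower differences (30.8%) and in 36.9% of the 7833 tested genes with a RefSeq window. Over all 27018 genes with a window the share was 23.0%. The palindrome was found in 1 of these 14 genes, 0 of the 13 and 3.75% of tested genes. A match is a run of letters and not a measured binding site.

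The 15 largest lower differences, chosen by the same rule, held Gabbr1 and a group of smaller differences that included astrocyte genes. Gfap, the intermediate filament of reactive and white matter astrocytes, had 489, 335, 334 and 255 across control replicates 1 to 4, against 408, 173, 212.6 and 149.7 across cKO replicates 1 to 4. The groups overlapped through cKO replicate 1, and the difference was -0.80 (SE 0.24, limma adjusted p 0.743). Hopx, a homeodomain protein of neural stem cells and astrocytes, was 392, 398, 259 and 194 in controls and 245, 148.95, 254 and 145.84 in cKO. Its cKO libraries lay below the controls within each round, as for 4.6% of tested genes. The difference was -0.80 (SE 0.21, limma adjusted p 0.724).

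Nus1, a subunit of the enzyme that makes dolichol for protein glycosylation, was 348, 292, 169 and 171 in controls and 111.1, 180.4, 155.04 and 114 in cKO, a difference of -0.92 (SE 0.22, limma adjusted p 0.56). Tpm4, a tropomyosin that coats actin filaments, was 182, 213, 181 and 122 in controls and 127.9, 125.9, 91.1 and 91.1 in cKO, a difference of -0.75 (SE 0.23, limma adjusted p 0.743). The rest were Cnksr2 (-1.20), Dmp1 (-1.16), the exon junction helicase Eif4a3 (-1.02), the histone chaperone Nasp (-0.999, or -0.62 without control replicate 1), Ubxn8 (-0.88), Klhl13 (-0.85), Mesdc2 (-0.85), Zc3h7b (-0.82), the deubiquitinase Usp46 (-0.77) and the chromatin protein Dek (-0.74). These 30 genes were picked by this contrast, so their direction in it is a description.

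The rounds share no library, so the later round can be read beside genes picked in the first round alone. Of 117 genes with a first-round limma p under 0.01, 74 (63.2%) had the same direction in the later round, against 54.4% of all 10188 tested genes. Across all genes the Pearson correlation of the first and later differences was 0.06, as a description over genes that are not independent. Among the 15 largest higher genes, named from both rounds, Kcnk1 (-0.04) and Ank3 (-0.06) were not higher in the later round. Beside this, the difference between rounds (later minus first, from the same fit and the same 8 libraries) was 0.69 to 6.53 for the 15 largest higher genes (median 1.81), -1.29 to 0.61 for the 15 largest lower genes (median -0.58), and 0.04 in the median of all tested genes. The part of the round in their genotype differences beyond the covariate was not tested.

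**Figure D3:**
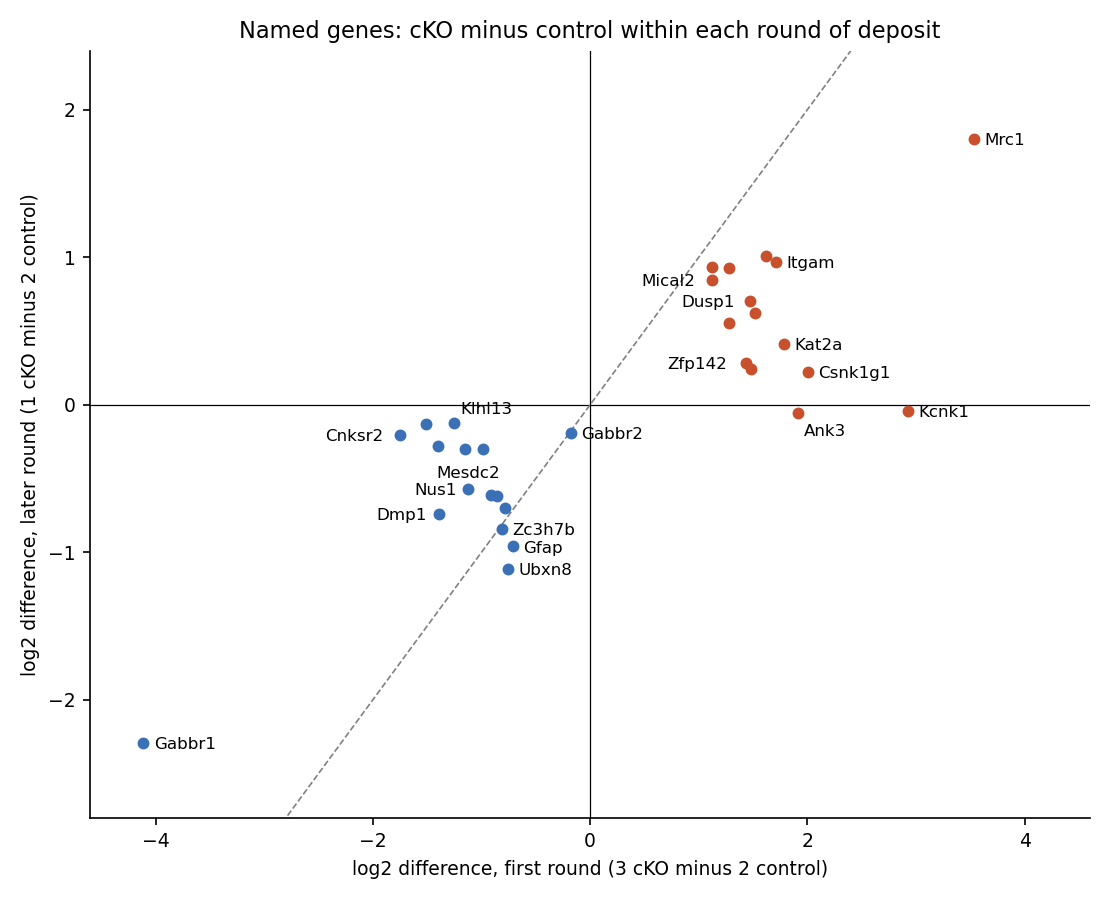
Log2 difference of the named genes within the later round (1 cKO minus 2 control libraries) against that within the first round (3 cKO minus 2 control libraries), red for higher and blue for lower over both rounds, with the line of equal difference dashed. Gabbr1 is far below 0 in both (-4.11 and -2.29), and Kcnk1 lies at 2.93 in the first round and -0.04 in the later.

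Directions in the other P28 tables differed between the regions. Of the 15 largest higher cortex genes, 14 were higher in hippocampus cKO (median 0.46), Kat2a being the exception (-0.46), while 7 were higher and 8 lower in olfactory bulb (median -0.03). Over all cortex genes 49.1% were higher in hippocampus and 53.1% in olfactory bulb. The 15 largest lower genes split 8 lower and 7 higher in hippocampus (median -0.07) and 11 lower and 4 higher in olfactory bulb (median -0.23). In a wider set, 81 of 114 genes with a first-round cortex p under 0.01 had the same direction in hippocampus (71.1%, against 53.6% of all genes) and 71 of 113 in olfactory bulb (62.8%, against 52.8%). Neither of those tables gave a gene with a limma adjusted p under 0.05, and 294 (2.53%) and 348 (3.02%) genes reached an unadjusted p under 0.05 there. By the library numbers in the labels, the hippocampus controls and most olfactory bulb controls stand next to the first-round cortex controls, which helped to choose these genes. Several cKO libraries of these regions likewise stand next to first-round cortex cKO libraries. The labels do not say whether regions came from the same animals. The part of shared animals or shared preparation in the common directions was not tested.

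The named genes were also read in normal development, where from P7 to P14 18.6% of 11802 genes rose and 31.2% fell (limma adjusted p under 0.05). Of the 15 largest higher genes, 12 were lower at P14 than at P7 in cortex (median -0.58), among them Kcnq1ot1 (-3.73) and Eml5 (-2.66), and 3 were higher, Kcnk1 (3.47), Itgam (2.62) and Mical2 (0.24). Over all cortex genes 43.8% were higher at P14. Of 125 genes with a genotype p under 0.01 over both rounds, 41 (32.8%) had the same direction in both contrasts, against 44.8% of all genes.

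Beside Gabbr1, no partner of the receptor passed the adjusted test. Of 10 genes listed for the GABA-B receptor and its partners, 7 passed the filter, 4 higher and 3 lower, with a median of 0.15, or -0.06 without control replicate 1. At an unadjusted p under 0.05 there were 3, Gabbr1, Kctd12 and Gprc5b, beside 6.35% of all tested genes. Kctd12, the KCTD protein that speeds receptor desensitization, was 50.7, 66.6, 305 and 230.2 in controls and 79.7, 60.8, 86.3 and 522 in cKO. Its difference was 0.58 (SE 0.25, limma adjusted p 0.746), and cKO replicate 4 stood far above the other cKO libraries. Adgrv1 had the highest difference of the list, 0.84 (SE 0.78), at 1.17 to 40.1 per library in controls and 4.79 to 27.8 in cKO. Kctd8 and Kctd16 were at 10.5 or less in every library. App, whose shed ectodomain binds Gabbr1, differed by 0.16, and Gprc5b, an orphan receptor of astrocytes, by -0.34 (SE 0.13, limma adjusted p 0.743).

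Other GABA genes were close between the genotypes, apart from Gabrg3 at low counts. Of 16 GABA-A receptor subunits 7 passed the filter, 3 higher and 4 lower (median -0.07, or 0.04 without control replicate 4). The subunits with the highest counts lay near 0, at 0.06 for Gabrg1 and -0.13 for Gabrb1. Gabrg3 was 6.34, 12.8, 6.58 and 12.4 in controls and 34.8, 25.2, 34.4 and 23.0 in cKO. Every cKO library lay above every control, which holds for 0.864% of tested genes, and the difference was 1.52 (SE 0.57, limma adjusted p 0.743) at low counts. It was 1.97 in hippocampus and -1.52 in olfactory bulb.

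Slc6a11 (GAT-3), a transporter by which astrocytes clear GABA, was 2341 to 3213 in controls and 2218 to 3353 in cKO, a difference of -0.07 (SE 0.12). Of the 6 tested genes of GABA uptake, synthesis and breakdown, 5 were lower (median -0.20), and Maob, a monoamine oxidase on the route from putrescine to GABA, was the lowest (-0.42, SE 0.17, limma adjusted p 0.743). The GABA transaminase Abat differed by -0.27 and Aldh5a1, the next enzyme, by -0.26. The median of this list, GABA uptake, synthesis and breakdown, was 0.01 without the round as covariate and -0.12 without control replicate 3.

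Genes of the signalling path below the receptor showed no common direction. Of 27 G protein and RGS genes 11 were higher and 16 lower (median -0.11, or -0.04 without control replicate 1, -0.02 without the round as covariate and 0.05 in the later round). At an unadjusted p under 0.05 there were 3 (11.1%), beside 6.35% of all tested genes. These were the Gi subunit Gnai3 (-0.40, SE 0.18), Gng12 (-0.30, SE 0.12) and the receptor kinase Adrbk2, also called Grk3 (0.51, SE 0.20). The cyclic AMP list held 12 higher and 12 lower genes of 24 tested (median -0.01). Pde4a, which breaks down cyclic AMP, was 28.5, 12.8, 39.5 and 52.5 in controls and 150.3, 71.3, 83.9 and 52.8 in cKO. Every cKO library lay above every control, as for 0.864% of tested genes. In the later round cKO replicate 4 (52.77) and control replicate 4 (52.55) were nearly level. The Pde4a difference was 1.53 (SE 0.44, limma adjusted p 0.743), and 0.21 within the later round.

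The catalytic subunit Prkaca of protein kinase A differed by 0.69 (SE 0.32) and its regulatory subunit Prkar1a by -0.35 (SE 0.16). Adcy5, an adenylyl cyclase at low counts here, was 20.1, 25.7, 19.7 and 4.84 in controls and 0, 2.10, 7.99 and 6.72 in cKO (difference -2.09, SE 0.96). Of 21 genes of calcium release and entry 13 were higher and 8 lower (median 0.10, or -0.03 without control replicate 2). Itpr2, the astrocyte inositol trisphosphate receptor, differed by 0.10 and Atp2a2, the calcium pump of the endoplasmic reticulum, by 0.03, and the channel Trpc1 by 1.73 (SE 0.69, unadjusted p 0.0224), 2.70 in the first round and -0.01 in the later.

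Other G protein-coupled receptors of astrocytes were more often higher than lower, 16 against 8 of 24 tested, with a median of 0.24, or 0.12 without control replicate 1. The list was higher in the first round (median 0.31) and not in the later (-0.11). Adra2a, a Gi-coupled adrenergic receptor, had no read in both first-round controls against 39.3, 9.44 and 19.2 in first-round cKO, and 24.1 and 23.5 in later controls against 28.8 in later cKO. As with Kcnk1, the first-round controls were the low libraries, and the later round differed by 0.26. Cnr1, the Gi-coupled cannabinoid receptor, was 122.6, 163.5, 162.2 and 143.1 in controls and 177, 196, 280.5 and 202 in cKO. Its cKO libraries all lay above all controls, as for 0.864% of tested genes. The difference was 0.53 (SE 0.22, limma adjusted p 0.743). Gpr37l1, an astrocyte receptor, differed by 0.30 (SE 0.13).

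Kcnk1 was the 1 gene of its list above 0. Of the other Kir and two-pore channels tested, all 5 had differences below 0 (list median -0.25, or -0.07 without cKO replicate 2), from -0.45 to -0.07, none at an unadjusted p under 0.05. Kcnj10 (Kir4.1), the main inward rectifier of astrocytes, was 7783, 9283, 3635 and 3016 in controls and 10950, 7262, 7184 and 3026 in cKO (difference -0.07, SE 0.13). The first-round libraries of both genotypes lay above all later ones, a round difference of -1.40. Kcnk2 (TREK-1) differed by -0.37, and Kcnj16 by -0.24.

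Genes of glutamate handling lay on both sides of 0. The transporter Slc1a2 (GLT-1) was 253880, 229240, 163230 and 131940 in controls and 229160, 192880, 185360 and 110740 in cKO, a difference of -0.31 (SE 0.11, limma adjusted p 0.743). Glutamine synthetase, Glul, differed by -0.24 (SE 0.09), while the transporters of neutral amino acids and glutamine, Slc1a4 (0.61, SE 0.19) and Slc38a3 (0.41, SE 0.16), were higher. Slc1a3 (GLAST) lay at -0.03. Over the 11 tested genes 5 were higher and 6 lower (median -0.03).

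Of 22 astrocyte maturation genes, all tested, 16 were lower and 6 higher in cKO, and every difference was smaller than 0.5 in either direction. The median was -0.12, beside -0.00 over all tested genes and -0.06 over genes with a mean of at least 100. At an unadjusted p under 0.05, 5 were lower, beside 3.11% of all tested genes: Slc1a2, Glul, Ndrg2 (-0.41), S100b (-0.36) and Aldoc (-0.21). With a minimum mean of 100, 207 of 3721 tested genes were lower at that p and 101 higher. Fgfr3, a receptor of the astrocyte lineage, was higher (0.29, SE 0.13). The round difference of the same 5 genes was -1.50 for S100b, -1.21 for Ndrg2, -0.83 for Aldoc, -0.78 for Slc1a2 and -0.69 for Glul. The median of the astrocyte maturation list was 0.01 without the round as covariate and -0.06 without cKO replicate 4, and it was 0.37 in hippocampus and 0.14 in olfactory bulb.

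The regulators of astrocyte shape, which include adhesion molecules and receptors needed for fine branching, were nearer to 0. Of 24 genes 9 were higher and 15 lower (median -0.04), and 23 differed by less than 0.5. Sparc, a secreted matrix protein, was 1949, 1916, 1178 and 844 in controls and 2014, 884, 893 and 743 in cKO (difference -0.62, SE 0.21, limma adjusted p 0.743), so that cKO replicate 1 overlapped the controls. Nlgn1, Nlgn2 and Nlgn3, the neuroligins, differed by -0.08, -0.38 and -0.03, and Ednrb, the endothelin B receptor, by -0.01. Of 27 astrocyte transcription factors 14 were higher and 13 lower (median 0.02), none at an unadjusted p under 0.05, with Sox9 at 0.16 and Rorb at -0.08.

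Among secreted factors that act on synapses, Chrdl1, which promotes the maturation of AMPA receptors at synapses, was 1319, 1379, 1475 and 1209 in controls and 1906, 1804, 2012 and 1535 in cKO. Every cKO library lay above every control over both rounds, which holds for 0.864% of tested genes. The difference was 0.39 (SE 0.12, limma adjusted p 0.743), 0.50 in the first round and 0.20 in the later, and it was 0.98 in hippocampus and -0.33 in olfactory bulb. Over the 17 tested genes of the list 7 were higher and 10 lower (median -0.04). Genes of the actin cytoskeleton and small GTPases numbered 15 higher and 17 lower of 32 (median -0.06), with the actin-severing proteins Cfl1 (-0.35, SE 0.12) and Cfl2 (-0.57, SE 0.23) and the microtubule protein Map4 (-0.37, SE 0.14) lower.

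Further lists gave little difference. The sodium pump list had 5 higher and 3 lower of 8 (median 0.10), with the beta subunits Atp1b2 at 0.03 and Atp1b1 at 0.34 (SE 0.15). Connexins had 3 higher and 1 lower of 4 (median 0.05), with Gja1 (connexin 43) at 0.01 and Gjb6 (connexin 30) at 0.10. The complex at astrocyte endfeet had 5 higher and 6 lower of 11 (median -0.11, or 0.03 without control replicate 1), with the water channel Aqp4 at -0.13. Voltage-gated channels had 10 in each direction of 20 (median -0.02), with the sodium channel Scn8a at 1.14 (SE 0.39). Cadherins and protocadherins had 10 higher and 12 lower of 22 (median -0.01), with Cdh2 at 0.09.

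Extracellular matrix genes had 13 higher and 9 lower of 22 (median 0.03), with the matrix glycoprotein Tnc at 0.65 (SE 0.25) and the proteoglycan Ncan at -0.28 (SE 0.11). Notch pathway genes had 9 higher and 5 lower of 14 (median 0.09), with Notch1 at -0.24. FGF and Sprouty genes had 7 higher and 8 lower of 15 (median -0.02), with Spry4, an inhibitor of FGF signalling, at 0.66 (SE 0.31). Hedgehog and BMP genes had 9 in each direction of 18 (median -0.00), with Bmpr1a at -0.32. Interferon and MHC genes had 6 higher and 5 lower of 11 (median 0.03), with B2m at -0.09. None of these genes passed the adjusted test.

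**Figure D4:**
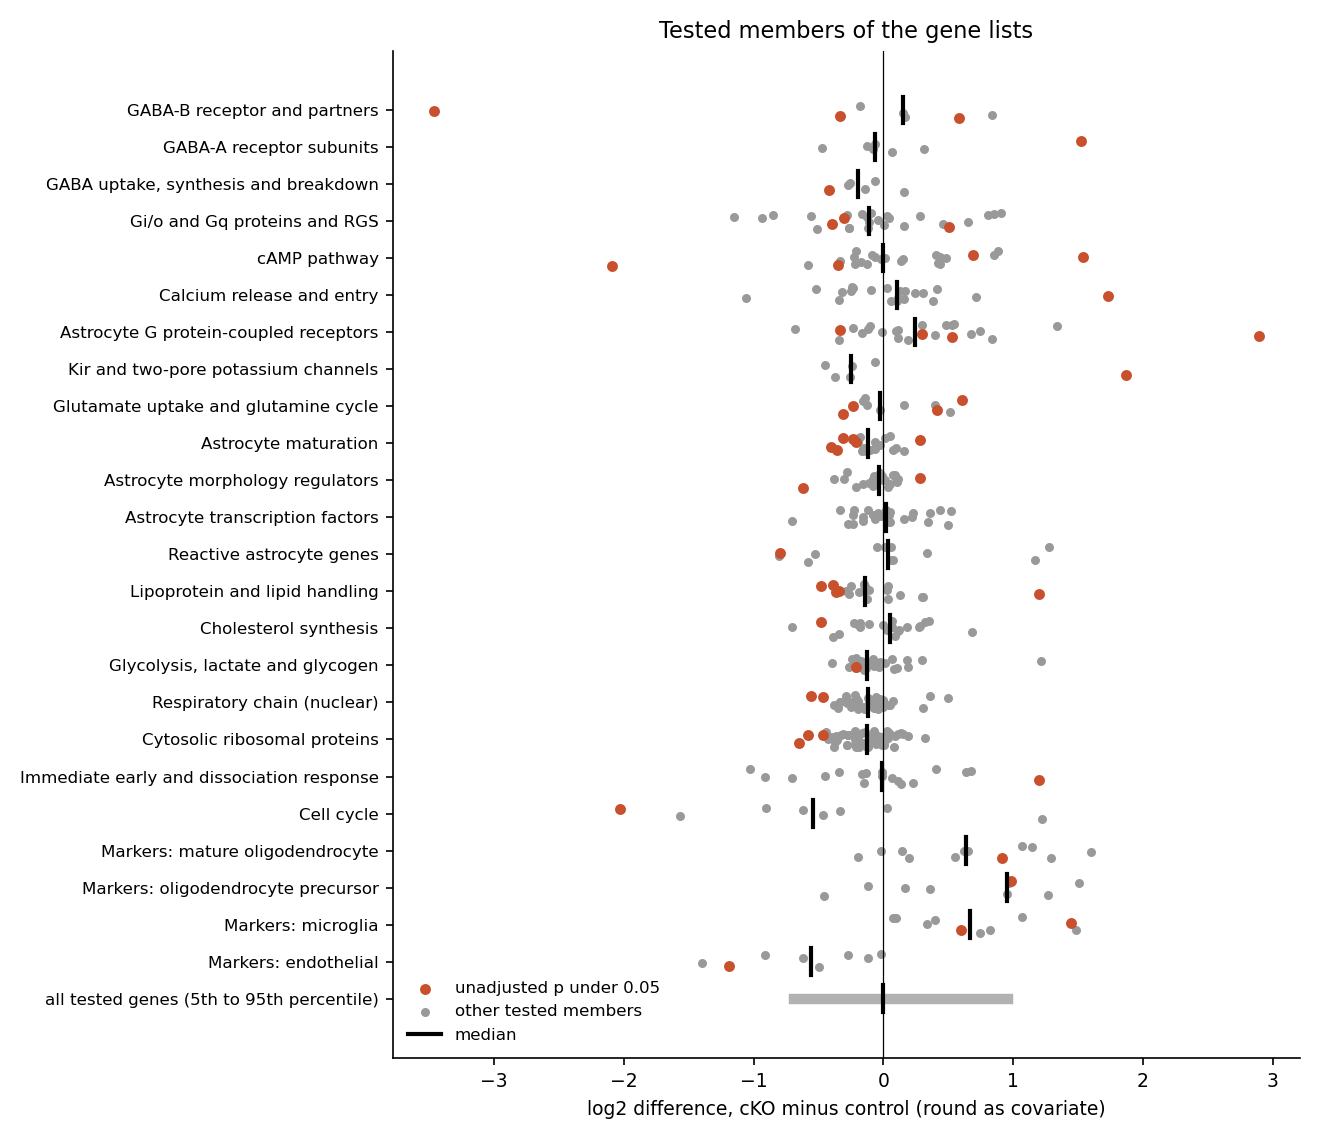
Log2 difference of each tested member of 24 gene lists, cKO minus control with the round as covariate, red where the unadjusted p is under 0.05, with the median of each list as a black bar and, in the bottom line, the 5th to 95th percentile of all tested genes (-0.69 to 0.96). Most members lie close to 0, with Gabbr1 at -3.46 the member farthest out.

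Of 34 listed genes of reactive astrocytes, 12 passed the filter, 7 higher and 5 lower (median 0.04, or -0.17 without control replicate 2). C3 and Timp1 were at 0 in all libraries, and Lcn2 was read in cKO replicate 4 alone. Vim differed by 0.33 and Serpina3n by 0.02, beside Gfap at -0.80. Immediate early genes, which also respond to tissue dissociation, numbered 8 higher and 10 lower of 18 tested (median -0.01, from -0.29 without cKO replicate 4 to 0.20 without control replicate 1). Their median was -0.34 in the first round and 0.42 in the later, their round difference 1.89, and beside Dusp1 none reached an unadjusted p under 0.05. Fos differed by 0.68 and Egr1 by 0.40.

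Of 21 tested genes of lipid handling 14 were lower and 7 higher (median -0.14). At an unadjusted p under 0.05, 4 were lower, beside 3.11% of all tested genes and 207 of 3721 with a minimum mean of 100. The 4 were the fatty acid desaturases Scd1, Scd2, Fads1 and Fads2, which were not a list of their own. Scd2 was 10947, 10287, 6459 and 5070 in controls and 9820, 8561, 7563 and 3914 in cKO. Its cKO libraries lay below the controls within each round, as for 4.6% of tested genes. The Scd2 difference was -0.39 (SE 0.11, limma adjusted p 0.743). Scd1 (-0.48, SE 0.18), Fads1 (-0.37, SE 0.14) and Fads2 (-0.34, SE 0.14) followed. The apolipoprotein Apod differed by 1.20 (SE 0.45), 1.90 in the first round and -0.05 in the later. The round difference was -0.996 for Scd2, -1.24 for Scd1, -1.27 for Fads1 and -0.91 for Fads2, and without the round as covariate the median of lipoprotein and lipid handling genes was -0.00. Cholesterol synthesis genes numbered 12 higher and 10 lower of 22 (median 0.05), with Cyp51 at -0.48 (SE 0.16).

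More energy and translation genes lay slightly below 0 than above it. Of all tested genes 50.2% were lower (median -0.00), and genes with a mean of at least 100 had a median of -0.06. Of 46 nuclear genes of the respiratory chain 40 were lower and 6 higher, with a median of -0.12, and 2, Uqcrq (-0.56, SE 0.25) and Cox7a2 (-0.46, SE 0.21), reached an unadjusted p under 0.05. Of 63 tested cytosolic ribosomal protein genes 49 were lower and 14 higher, with a median of -0.13, and 3 reached it, among them Rpl22 (-0.65) and Rps20 (-0.46). The shares reaching it were 4.35% of the respiratory chain and 4.76% of the ribosomal protein genes, beside 6.35% of all tested genes. Genes of both lists share the composition of each library, so their directions are not independent of each other. The medians were -0.17 and -0.18 in the first round and -0.04 and -0.09 in the later round. In hippocampus they were -0.29 and -0.46, and in olfactory bulb 0.16 and 0.09, of the other sign. The respiratory chain median was -0.19 without cKO replicate 1, -0.08 without cKO replicate 3 and -0.01 without the round as covariate. The cytosolic ribosomal protein median was -0.23 and -0.04 without those libraries. Of 25 glycolysis and glycogen genes 17 were lower and 8 higher (median -0.13, or 0.00 without the round as covariate), with Gapdh at -0.14. The synthesis of serine and glycine numbered 6 higher and 6 lower of 12 (median -0.06), with Psat1 at -0.32 (SE 0.14).

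Few proliferation genes were expressed. Of 20 cell cycle genes 8 passed the filter, 2 higher and 6 lower (median -0.54, from -0.86 without cKO replicate 1 to -0.25 without cKO replicate 2). Top2a, the topoisomerase of dividing cells, was 10.6, 14.01, 113 and 152.8 in controls and 1.12, 0, 7.19 and 47.01 in cKO. Its difference was -2.03 (SE 0.70, limma adjusted p 0.743). Within each round the cKO libraries lay below the controls, as for 4.6% of tested genes. Mki67 was 17.96, 26.9, 157.9 and 225 in controls and 45.998, 1.05, 47.2 and 99.8 in cKO (difference -0.62, SE 0.73). The round difference was 3.71 for Top2a and 2.85 for Mki67.

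Markers of other brain cells were read for both genotype and round, and none passed the adjusted genotype test. All 10 tested microglia markers were higher in cKO (median 0.67, or 0.41 without cKO replicate 4 and 0.08 without the round as covariate), 2 of them, Itgam among these, at an unadjusted p under 0.05. Over all tested genes 3.24% were higher at that p. Within the first round 6 of the 10 microglia markers were higher. The summed microglia level was 192.3 and 189.2 for first-round controls against 288, 248 and 255 for first-round cKO, and 1371 and 849 for later controls against 2275 for later cKO. Mature oligodendrocyte markers were higher in 10 of 12 (median 0.64, from 0.30 without cKO replicate 3 to 1.15 without cKO replicate 4). Their median was 1.18 in the first round and -0.18 in the later, where 9 of 12 were lower, and the median of the mature oligodendrocyte markers was 0.16 without the round as covariate. Their sum was 2990.2 and 2988 for first-round controls against 2812, 3829.8 and 7326 for first-round cKO, and 16460 and 10042 for later controls against 11306 for later cKO.

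Oligodendrocyte precursor markers were higher in 7 of 9 tested (median 0.95), or 0.30 without cKO replicate 3 and 0.31 without control replicate 2, with Olig2 at 0.98 (SE 0.30). Their sum was 345.6 to 602.9 in controls and 518 to 917 in cKO. Endothelial markers were lower in all 8 tested (median -0.56, from -1.16 without cKO replicate 3 to -0.30 without cKO replicate 1, and -1.08 without the round as covariate). Their sum was 129.96 and 189.2 for first-round controls against 44.9, 57.7 and 266 for first-round cKO, and 748 and 452 for later controls against 471 for later cKO. Mural and fibroblast markers numbered 4 higher and 2 lower of 6 (median 0.21, from 0.07 without control replicate 2 to 0.53 without cKO replicate 4, and -0.30 without the round as covariate), with sums of 203 to 591 in controls and 257 to 459.5 in cKO. Neuronal markers numbered 4 higher and 4 lower (median -0.03) and astrocyte markers 5 higher and 7 lower of 12 (median -0.08). Ependymal and choroid markers ranged from 40.6 to 7694 per library and the genotypes overlapped. No marker of these lists passed the adjusted test, and the part of other cells in the values above was not tested.

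**Figure D5:**
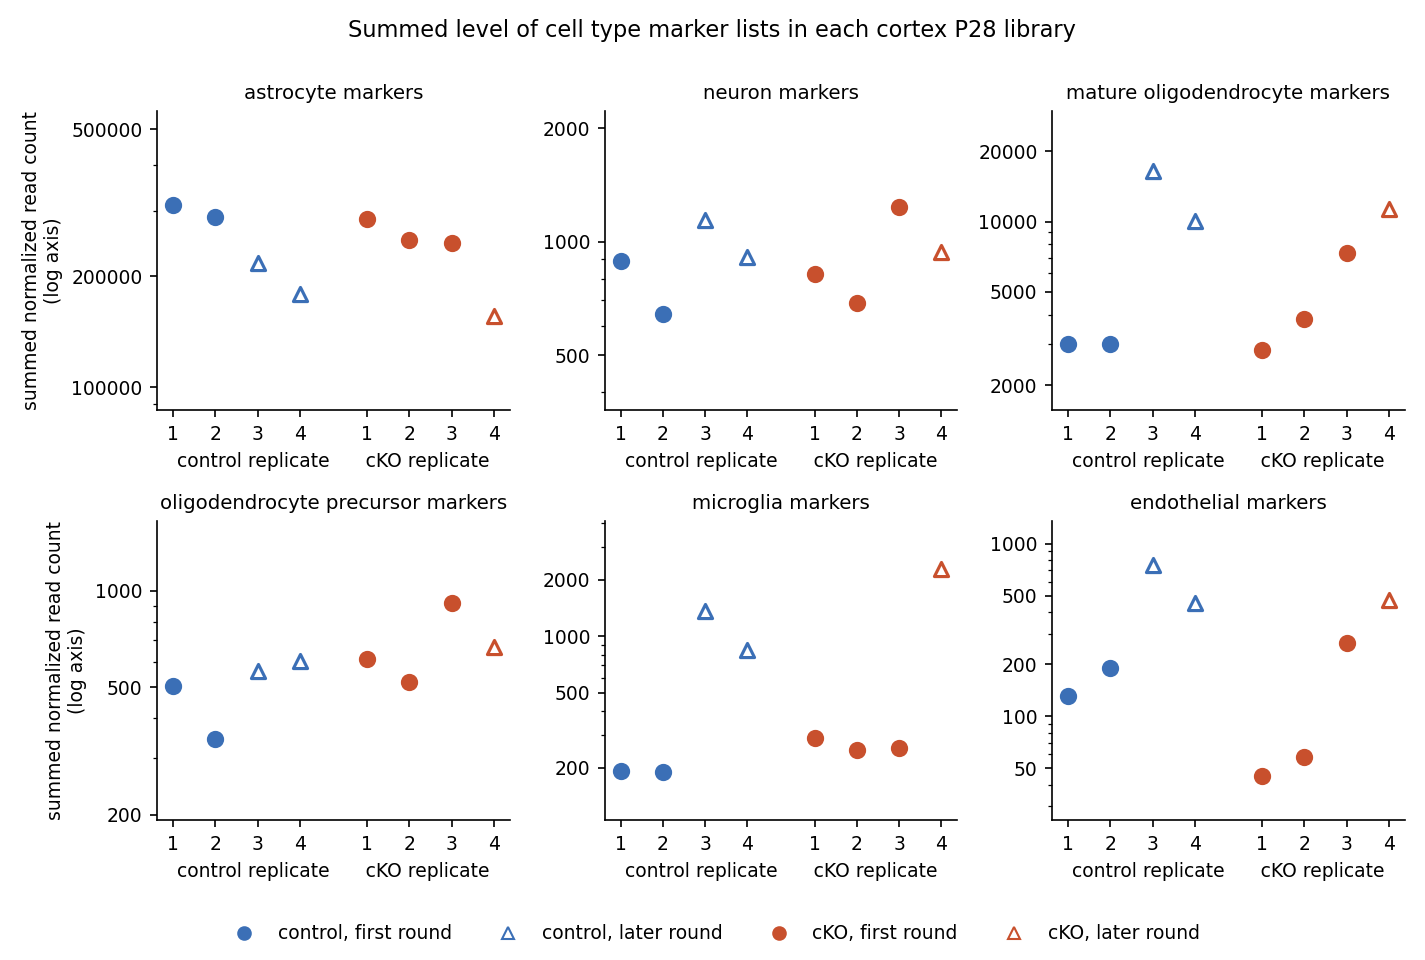
Summed normalized read count (log axis) of 6 cell type marker lists in each cortex P28 library, filled circles for the first round and open triangles for the later round, controls in blue and cKO in red. Astrocyte markers are highest throughout (155950 to 311360). Mature oligodendrocyte, microglia and endothelial markers are higher in every later library than in every first-round one, and oligodendrocyte precursor markers overlap between the rounds.

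The neighbours of Gabbr1 on chromosome 17 were read in a window of 2 Mb on each side. All 29 genes tested lay on the side before its start and 0 on the other, 17 higher and 12 lower, with a median of 0.05 and differences from -1.17 to 1.29. The nearest tested gene, Mog, a myelin gene, was 8.45, 0, 137 and 96.8 in controls and 0, 43.01, 55.9 and 97.9 in cKO (difference 1.29, unadjusted p 0.231). Atat1 was the 1 neighbour of 29 with an unadjusted p under 0.05, beside 6.35% of all tested genes. It was at 52.8, 30.4, 81.1 and 147.3 in controls and 134.6, 125.9, 87.1 and 129.5 in cKO. The later cKO library lay within its controls for Atat1.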

How the data were processed

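RNA-seq was made from 4 control and 4 cKO cortex libraries with a low-input kit, per the labels' protocols. The submitters' processing notes name FastQC, MultiQC, STAR 2.5.0a, DESeq2 1.20.0 and the build mm10. The counting program, strand setting and annotation are not given in the sources used here. The deposited signal is, per the labels, a normalized read count per gene, in 1 table per region and experiment. Dividing by 1 step per library gave whole reads for 100% of values (within 0.02 of a read).

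Genes with a mean of at least 10 were tested with limma 3.58.1 (lmFit, eBayes with trend) in R 4.3.3 on log2(value + 1), with the round of deposit as covariate and Benjamini-Hochberg adjustment over 10188 genes. Recovered reads were tested with edgeR 4.0.16 and DESeq2 1.42.0 as alternatives. Gabbr1, Gabbr2 and Kcnk1 were also tested by exact permutation of genotype within rounds. The effect of these was also tried: 0.1 or 8 added, all genes with a read, a mean of at least 100, TMM or quantile scaling, no trend, array weights, no round covariate, the first round alone, sex as a further covariate and leaving out each library. Tables of other regions and ages were fitted apart.

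The named genes were Gabbr1, Gabbr2, Kcnk1, every gene with an adjusted p under 0.05, the 15 largest differences in each direction at an unadjusted p under 0.01 and at least median expression, and list members at an unadjusted p under 0.05 or, failing these, of highest mean, with predicted genes left out. A few other list members were named for their role after their values were seen. Members and lists were chosen with earlier results of these data known. The limma test was checked on simulated data without a difference between rounds. It recovered 29.9% of 2-fold, 64.2% of 4-fold and 89.4% of 8-fold changes, with 9 false calls. Many 2-fold changes would thus be missed. Tables were scaled apart, so tests stay within a table. Depth was 2726163 to 4454629 reads, and edgeR's biological coefficient of variation was 36%. Some members of the lists are counted but not reported here by name.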

Additional observations from a re-analysis of the deposited data

Results flagged for a closer look

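Of 216 groups of 4 libraries checked, over 108 named genes, 13 held a library far from the other 3 of its group. The count is close to the 1 in 20 or so that chance gives, a reference for groups not split by round. The later-round library cKO replicate 4 was the one apart for Eif4a3 (60.45), Usp46 (83.47), Dek (147.8), Kctd12 (521.9), Kcnj16 (646.7), Glul (11570) and Cfl1 (794.4). It is the only cKO library of its round, and the check joined the rounds. Usp46, Kctd12, Kcnj16, Glul and Cfl1 also differed between the rounds at a limma adjusted p under 0.05, and Eif4a3 and Dek did not. The part of the round in the distance of cKO replicate 4 from the others was not tested. Other cKO libraries apart were replicate 3 for Atat1 (87.11) and replicate 1 for Rpl22 (264.8). Among controls these were replicate 1 for Ubxn8 (130), replicate 2 for Dek (123.8) and replicate 4 for Adcy5 (4.84) and Hepacam (2583).

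For 2 of the 108 named genes checked, the cKO libraries lay apart from the controls in opposite directions in the first and the later round. How many of all tested genes do so was not counted. The 2 genes are therefore described by their values and not called different between rounds. Over all tested genes 54.4% had the same direction in both rounds. Hepacam was above its controls in all first-round cKO libraries (0.17) and below them in the later one (-0.10), and Stat3 likewise (0.35 and -0.48). The interaction of genotype and round had an unadjusted p of 0.258 for Hepacam and 0.0634 for Stat3.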

How the results depend on the processing

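The Gabbr1 difference ran from -4.11 (first round alone) to -2.89 (array weights) over 21 alternatives, and from -4.11 to -3.22 when 1 library was left out. It missed the adjusted threshold in limma without the trend (-3.46, adjusted p 0.322), where 0 genes were lower, against 1 in each fit without 1 library. The count of higher genes was 2 in the first round alone (Kcnk1 and Malat1) and 0 to 1 without 1 library. Kcnk1 was past the threshold in the first round alone (2.93), and ran from 1.43 to 2.93 without 1 library. At an unadjusted p under 0.05, higher and lower genes numbered 101 and 207 with a minimum mean of 100, where 3721 genes were tested, and 106 and 115 with no round covariate. Without 1 library they ran from 263 to 512 (without cKO replicate 4) and from 213 to 414. All 638 alternative values of the 31 named genes checked kept their direction. Gabbr1, Gabbr2 and Kcnk1 aside, these genes were picked for their difference in the same 8 libraries that the alternatives reuse. The first round alone and the fit without cKO replicate 4 also hold the same contrast. The kept direction is therefore a description. Array weights gave 1.01 for Kcnk1, and without the round covariate Kcnq1ot1 was 0.32, Malat1 0.46, Ank3 0.58 and Mrc1 1.29. The interaction of genotype and round gave 0 genes at an adjusted p under 0.05 in limma, with a minimum mean of 100 and in edgeR, and 1.5% of genes, 57 genes and 200 genes, in that order, at an unadjusted p under 0.05. No paired analysis was possible because the labels give no shared replicate numbers. The later round holds 1 cKO library, which limits every statement on differences between rounds, and depth limits genes of low count.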
